A study of Mus musculus with 5 samples.

Results

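The 10 genes described here are known for expression in fetal tissues, in liver cancer or from 1 parental copy: the oncofetal genes Afp, Gpc3, Igf2bp3 and Cd24a, and the imprinted genes H19, Igf2, Dlk1, Peg3, Plagl1 and Cdkn1c. They were chosen by name from the 31053 genes of the count tables, with no threshold on their measured values. Earlier results of these data were known when they were chosen. Liver cells of C57BL/6J mice had been profiled by droplet single-cell RNA sequencing (10x v3) in 5 libraries, 1 per group. P14 was a normal liver at postnatal day 14, Adult control was taken as an unoperated liver of an adult (8 weeks by the protocol that covers all adult samples), and the other 3 came from mice operated at 8 weeks of age and taken 24, 48 and 96 h later, the operation being a partial hepatectomy (PHx), in which a large part of the liver is cut away. All libraries shared the strain, a perfusion digest and a dead-cell removal step. The labels contradict each other on the Adult control, which one protocol lists among the operated mice and which its title and source name call a control. The number of animals is not stated, so with 1 library per group no difference could be tested, and intervals (95%, exact) cover counting error only.

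Hepatocytes were barcodes with at least 5000 unique molecular identifiers (UMIs, counted transcripts), 10 to 30% mitochondrial UMIs and at least 1% of UMIs from Alb, Apoa1 and Ttr. There were 5691 in all. P14 had 2106, the Adult control 925, and the PHx libraries 1170, 719 and 771. A hepatocyte had a median of 38923 UMIs in P14, against 18527 UMIs for the Adult control and 19562, 35432 and 22075 UMIs after PHx. All 12 independent hepatocyte markers reached 5 CPM in every library, where CPM is a gene's UMIs scaled to 1000000 nuclear-gene UMIs. Between 5.95% and 18.99% of hepatocytes carried 3 or more markers of another cell type, except at 48 h with 56.9%. The 10 neutrophil markers summed to 11.9 CPM in hepatocytes of the Adult control, 32.1 CPM in P14 and 108, 201 and 22.4 CPM after PHx. The libraries shared 3 hepatocyte barcodes, and no doublet caller was run. The P14 library held Xist at 840 CPM and 0 UMIs of Ddx3y, whereas the adult libraries held at most 1 UMI of Xist and 112 to 140 CPM of Ddx3y, so in every comparison with P14, age and sex cannot be told apart. The label code of the sequencing lane differed between the Adult control and the other 4 libraries, so lane and control group cannot be told apart either.

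Afp encodes alpha-fetoprotein, the fetal counterpart of albumin, which is shut off after birth and reappears in liver cancer. H19 is a long non-coding RNA read from the maternal chromosome, and its neighbour Igf2, a fetal growth factor, is read from the paternal one. Imprinted genes are expressed from 1 parental copy, and several of them form a network that promotes or restrains fetal growth. Which allele the transcripts came from was not analysed here.

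By the GENCODE M21 annotation of GRCm38, which is the mm10 build that the submitters' processing notes name, the 10 genes lie on 6 chromosomes. H19 (chr7:142575529-142578143) and Igf2 (chr7:142650766-142666816) are 72622 bases apart on the minus strand, and Cdkn1c (chr7:143458339-143461050) lies in the same imprinted region. Peg3 lies at chr7:6703892-6730431, Dlk1 at chr12:109452823-109463336, Plagl1 at chr10:13060504-13131694 and Cd24a at chr10:43578284-43584265. Igf2bp3 lies at chr6:49085223-49214957 and Gpc3 at chrX:52272426-52613950. Afp (chr5:90490737-90508907) starts 14134 bases after the end of Alb (chr5:90460897-90476602).

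The promoters of Afp and Alb are shown because these neighbouring genes were both higher in P14 but by very different ratios, and that of Gpc3 because it was high at the same age without lying near them. Each is 300 bases of RefSeq (GRCm38.p6), from 250 before to 50 after the annotated start. Capitals mark matches, on either strand, to GTTAAT (the core of an HNF1 site), TGTTTAC (FOX), TTGCNNAA (C/EBP), TATAAA and CCAAT. Capitals of neighbouring matches may adjoin.
Afp promoter (chr5:90490464-90490763, plus strand): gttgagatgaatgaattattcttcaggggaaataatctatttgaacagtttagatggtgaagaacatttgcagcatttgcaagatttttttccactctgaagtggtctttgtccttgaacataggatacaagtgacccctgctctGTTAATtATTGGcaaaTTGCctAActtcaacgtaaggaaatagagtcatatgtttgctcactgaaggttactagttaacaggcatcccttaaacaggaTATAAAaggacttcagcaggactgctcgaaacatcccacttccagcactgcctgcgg
Alb promoter (chr5:90460620-90460919, plus strand): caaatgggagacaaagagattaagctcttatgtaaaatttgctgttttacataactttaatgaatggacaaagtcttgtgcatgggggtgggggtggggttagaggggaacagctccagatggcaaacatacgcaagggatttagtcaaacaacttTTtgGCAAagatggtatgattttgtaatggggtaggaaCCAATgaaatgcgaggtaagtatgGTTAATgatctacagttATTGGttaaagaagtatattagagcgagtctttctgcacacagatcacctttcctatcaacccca
Gpc3 promoter (chrX:52613925-52614224, minus strand): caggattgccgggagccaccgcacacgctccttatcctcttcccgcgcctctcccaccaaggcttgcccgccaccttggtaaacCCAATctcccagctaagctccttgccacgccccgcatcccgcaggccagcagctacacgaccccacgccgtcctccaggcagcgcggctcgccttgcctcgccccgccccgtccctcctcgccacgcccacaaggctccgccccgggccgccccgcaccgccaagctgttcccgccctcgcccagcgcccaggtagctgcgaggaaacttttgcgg
Among 32851 promoters of this length, GTTAAT occurred in 7.10%, TGTTTAC in 3.65%, TTGCNNAA in 10.8%, TATAAA in 13.6% and CCAAT in 37.4%. Afp and Alb each held 4 matches, both including GTTAAT and TTGCNNAA, whereas the Gpc3 window held a single CCAAT. These are matches of letters and were not tested as binding sites.

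H19 also carries the hairpin of miR-675, a microRNA pair that lies within the gene on the minus strand. The pair is shown because H19 was the most abundant of the 10 transcripts. Capitals mark the seed, bases 2 to 8, which differed between the arms. The counts measure polyadenylated transcripts and give no value for the microRNAs.
mmu-miR-675-5p (chr7:142577112-142577133): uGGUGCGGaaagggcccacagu
mmu-miR-675-3p (chr7:142577078-142577099): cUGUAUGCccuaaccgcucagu

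The first comparison, P14 against the Adult control, gives the level of each gene in young hepatocytes. In P14, 7 of the 10 genes were detected at 41.9 CPM or more, and in the Adult control no gene exceeded 3.45 CPM. H19 stood at 10465 CPM (10440 to 10490) in P14 and at 0 UMIs in the Adult control, so it was at least 46454-fold higher, taking 3 UMIs over the whole adult group as the floor. Every P14 hepatocyte contained H19, with a median of 304.5 UMIs per cell. Among all genes tested it had the largest P14 ratio.

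Afp stood at 668 CPM in P14 (662 to 674) against 0.601 CPM in the Adult control (0.259 to 1.18, 8 UMIs), a 1112-fold difference (564 to 2576). Alb, which encodes albumin and lies beside it, was 3.55-fold higher in P14 (104975 against 29534 CPM). Alb also served to choose the hepatocytes, so its level depends in part on that choice. Igf2 was at 154 CPM in P14 and at 0 UMIs in the Adult control, at least 682-fold higher.

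Gpc3 encodes glypican-3, a cell-surface proteoglycan that limits growth. It stood at 83.3 CPM in P14 (81.1 to 85.5) and at 0 UMIs in the Adult control, at least 370-fold higher. Igf2bp3, an RNA-binding protein that binds Igf2 messenger RNA, was at 41.9 CPM against 0.150 CPM (2 UMIs in the Adult control), a ratio of 279 (77.1 to 2304).

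Cdkn1c encodes p57, an imprinted inhibitor of cyclin-dependent kinases. It was at 107 CPM in P14 and at 0.526 CPM in the Adult control, 204-fold higher (99.2 to 509). Peg3, an imprinted zinc-finger protein, was at 169 CPM against 3.45 CPM, 49.0-fold higher (36.7 to 66.9). Peg3 thus had the highest adult level of the 10 and the smallest ratio of these 7.

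The remaining 3 genes were low at both ages. Cd24a, a surface glycoprotein of progenitors and blood cells, was at 2.38 CPM in P14 and 1.05 CPM in the Adult control, a ratio of 2.27 (1.31 to 4.25). Without hepatocytes that carried 3 or more markers of another cell type, its log2 ratio, with a pseudocount of 1 CPM, was 0.17 (-0.47 to 0.78) in place of 0.72. Plagl1, an imprinted zinc-finger regulator of the same growth network, had 6 UMIs in P14 and 0 in the Adult control. Dlk1, a membrane protein of fetal hepatoblasts, had 0 UMIs in P14 and 0 in the Adult control, which in P14 allows up to 0.0465 CPM by the floor of 3 UMIs and 0.0571 CPM by the exact interval.

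Counted by call, 7 of 10 genes were at least 4-fold higher in P14, against 3.07% of the 9011 genes with at least 5 CPM in either library. These 7 reached 5 CPM through their P14 level alone, so the count is a description. The median log2 ratio of all tested genes was -0.26 with the total count and 0.06 with TMM factors. The share of 4-fold calls that were higher in P14 was accordingly 45.3% with the total count and 57.8% with TMM factors, and the 7 calls were made with either scaling.

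**Figure D1:**
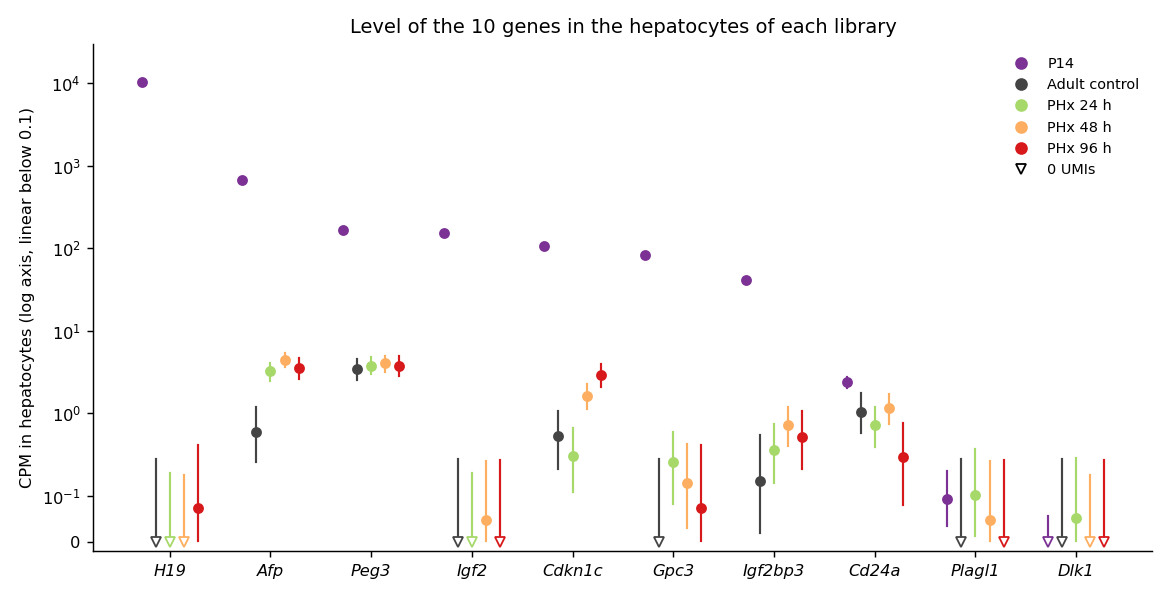
Level of each of the 10 genes (CPM, log axis that is linear below 0.1) in the hepatocytes of 1 library per group, with exact Poisson intervals as bars and open triangles for 0 UMIs. H19 at 10465 CPM and 6 further genes at 41.9 to 668 CPM in P14 lie far above the adult libraries, in which no gene exceeded 4.46 CPM.

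Within the P14 library the genes differed in how evenly they were spread over cells. Without thinning, Afp was found in 86.6% of hepatocytes (85.03 to 87.99%), but 88 cells with 100 or more UMIs (4.18% of cells) held 42.5% of its UMIs, and 1 cell held 743. With each cell thinned to 5000 UMIs, the variance of Afp was 13.7 times its mean, against 1.05 to 1.32 for Igf2, Gpc3, Igf2bp3, Peg3 and Cdkn1c. For H19 this ratio was 15.7. The mean per thinned cell was 43.8 UMIs for H19 and 2.48 UMIs for Afp, but 0.162 to 0.668 UMIs for those 5 genes. The ratios were therefore not read as a ranking between genes of unlike level. By the share of UMIs in the richest cells, H19 was spread more evenly than Afp. The 211 cells richest in Afp held 62.2% of its UMIs, whereas the 211 cells richest in H19 held 21.7% of the H19 UMIs.

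Hepatocytes along the liver lobule differ in gene use between the portal vein and the central vein. P14 hepatocytes were ordered and cut into 3 ranges of 708, 696 and 702 cells by the ratio of 15 pericentral genes (such as Glul and Cyp2e1) to 15 periportal genes (such as Cyp2f2 and Hal), none of them among the 10. Afp was at 1097 CPM (1084 to 1112) in the pericentral range, against 449 CPM in the middle and 455 CPM (446 to 464) in the periportal range. It was concentrated at the far end, with 2214 CPM in the last of 10 ranges of cells and 734 CPM in the range before it. Of the 88 cells with 100 or more Afp UMIs, 69.3% (58.6 to 78.7%) lay in the pericentral range.

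Cells rich in Glul, the glutamine synthetase of the layer around the central vein, were also viewed. Glul is among the pericentral genes of the ordering, so this view is not independent of it. Of the 68 P14 cells with 3 or more Glul UMIs after thinning, 95.6% lay in the pericentral range. In these 68 cells, Afp was at 4183 CPM and Gpc3 at 145 CPM. In the 1629 cells without a Glul UMI, Afp was at 514 CPM and Gpc3 at 79.8 CPM.

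H19 and Igf2 ran the other way. H19 was at 13343 CPM in the periportal range, 10324 CPM in the middle and 7648 CPM in the pericentral range, a 1.75-fold difference between the ends. Igf2 was at 193, 150 and 117 CPM in the same order, 1.65-fold. The neighbours H19 and Igf2 thus had like gradients, and Gpc3 the opposite one. Afp was higher only toward the pericentral end. Over 10 ranges of cells it went from 527 CPM in the first to 380 CPM in the fourth, and to 2214 CPM in the last.

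Gpc3 was at 70.8, 80.8 and 98.5 CPM from the periportal to the pericentral range. Cdkn1c was at 95.5, 112 and 116 CPM. Igf2bp3 was at 46.0, 41.1 and 38.5 CPM and Peg3 at 173, 180 and 154 CPM. In the last of 10 ranges of cells Peg3 was at 126 CPM (117 to 134), against 162 CPM in the range before it and 172 CPM in the first. Alb stood between 102307 and 109286 CPM in all 3 ranges.

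Median depth was 39917, 37544 and 38998 UMIs in the 3 zonation ranges and mitochondrial shares were 19.8 to 21.0%. Depth itself went with the genes: H19 was at 13833 CPM in the shallowest 702 cells and 8757 CPM in the deepest 702, and Afp at 432 and 760 CPM. The part of depth in the gradients was not tested beyond these values. Between the end ranges, the differences of Afp, H19, Igf2 and Gpc3 kept their direction in 7 other cell filters, 1 of which left all 2106 cells in place. They ranged from 2.31 to 2.96-fold for Afp and from 1.66 to 1.82-fold for H19. All these cells came from 1 library, so the gradients have no replicate.

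**Figure D2:**
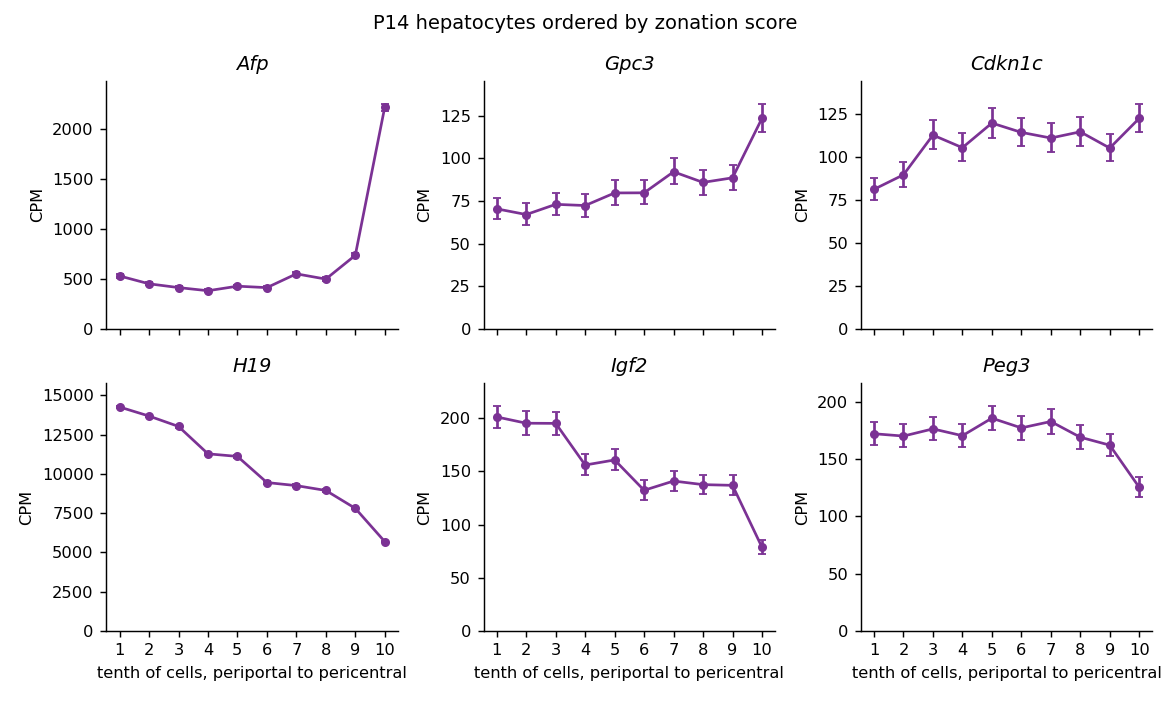
CPM of 6 genes in P14 hepatocytes split into 10 ranges from the periportal to the pericentral end of the zonation score (210 or 211 cells per point, exact Poisson intervals as bars, axes from 0). Afp reaches 2214 CPM in the last range, whereas H19 goes from 14257 CPM in the first range to 5682 CPM in the last.

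P14 hepatocytes with and without mitosis genes were compared for the same genes. In 255 cells with 3 or more mitosis genes, Igf2 was at 124 CPM (117 to 133), against 158 CPM (155 to 162) in 1546 cells without one. Igf2bp3 was at 50.8 CPM against 39.9 CPM and Cd24a at 9.14 CPM against 1.24 CPM. Cdkn1c, the cell-cycle inhibitor, did not separate them, with 108 CPM in both. Cd24a had only 154 UMIs in all P14 hepatocytes, up to 20 in a cell, and was far higher in blood cells of P14. The part of depth and of RNA from other cell types in these values was not tested.

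After PHx the question was whether the regenerating hepatocytes resumed these genes. None of the 7 genes high in P14 came near its P14 level. At 24, 48 and 96 h, 0 of the 10 genes reached 5 CPM in either library, the minimum for a call. The count of 0 genes at least 2-fold higher was fixed by that minimum and is not read against the 8.51%, 8.3% and 4.07% of all tested genes that were. Without the minimum, 1, 1 and 2 of the 10 genes were 2-fold higher. H19 had 0, 0 and 1 UMIs in 1170, 719 and 771 hepatocytes at 24, 48 and 96 h. The floor of 3 UMIs corresponds to 0.154 CPM at 24 h and 0.144 CPM at 48 h, and the exact upper bounds were 0.189 and 0.177 CPM. Igf2 had 0, 1 and 0 UMIs.

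Gpc3 had 5, 3 and 1 UMIs at 24, 48 and 96 h. Dlk1 had 1 UMI at 24 h and 0 later. Plagl1 had 2, 1 and 0 UMIs. Igf2bp3 had 7, 15 and 7 UMIs, or 0.359, 0.720 and 0.521 CPM. All 4 stayed below 1 CPM.

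Afp was the gene with the largest PHx ratio among those with UMIs in the Adult control. It stood at 3.23 CPM (2.48 to 4.13) at 24 h, 4.46 CPM (3.60 to 5.47) at 48 h and 3.57 CPM (2.63 to 4.74) at 96 h, against 0.601 CPM in the Adult control. The ratios were 5.37 (2.57 to 12.99), 7.43 (3.62 to 17.7) and 5.95 (2.79 to 14.6). The 3 PHx comparisons share that control, in which 8 UMIs set the ratio. The P14 level of 668 CPM lay far above all of them. With hepatocyte markers of at least 5% of UMIs in place of 1%, Afp had no UMI left at 24 and 48 h (log2 ratio 0, interval -2.83 to 5.16 and -2.83 to 5.94), but only 47 cells of the Adult control and 6 and 2 cells at 24 and 48 h were left.

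These Afp UMIs were thinly scattered. Without thinning, positive hepatocytes made up 4.62%, 10.0% and 5.32% after PHx, against 0.757% in the Adult control. Of the 63, 93 and 48 UMIs, 50, 62 and 36 were the only one in their cell. Single cells reached 7, 10 and 4 UMIs.

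At an equal depth of 5000 UMIs, mitochondrial ones included, the positive shares were 1.79% (1.11 to 2.73%), 1.11% (0.482 to 2.18%) and 1.30% (0.624 to 2.37%) at 24, 48 and 96 h, and 0.108% (0.00274 to 0.601%) in the Adult control. Another random draw at this depth gave 1.11%, 1.25% and 1.04% after PHx and 0.108% in the Adult control, so the order of the PHx times rests on the draw. T or NK-like cells, which should lack Afp, had 2.06%, 2.41% and 0.694% after PHx and 0.928% in the Adult control. These shares rest on the T or NK-like barcodes of at least 5000 UMIs, which numbered 97, 332 and 144 after PHx (median depths before thinning of 6494, 6846 and 7297 UMIs) and 539 in the Adult control (6526 UMIs). Another 147, 159 and 57 barcodes after PHx and 158 in the Adult control were shallower and were left out. The hepatocyte shares at 24 and 48 h were thus at or below the T or NK-like share and were not read as a difference from those cells, and at 96 h the intervals overlapped. Thinned to 5000 UMIs without mitochondrial genes, a setting chosen after seeing the data, hepatocytes had 1.51%, 2.26% and 2.24% after PHx, against 2.27%, 2.00% and 0.719% of T or NK-like cells. In the Adult control the shares were then 0.452% and 0.998%. The intervals of both cell types overlapped in these 4 libraries, also at this depth.

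The level in T or NK-like cells was 4.46, 3.24 and 1.43 CPM after PHx (6, 10 and 2 UMIs) and 2.31 CPM in the Adult control. Neutrophil-like and erythroid-like cells held 0 Afp UMIs in all 4 adult libraries. At 48 h that allowed up to 1.90 and 1.97 CPM, below the hepatocyte level of 4.46 CPM (3.60 to 5.47). At 24 h it allowed up to 3.04 and 2.66 CPM, within the hepatocyte interval, and at 96 h 11.9 and 7.53 CPM, above it. Of the deep barcodes of these types, 0 of 92, 148 and 13 and 0 of 114, 141 and 37 were positive after thinning. In empty droplets Afp was at 1.096 CPM in the Adult control and 4.07, 4.06 and 3.88 CPM after PHx. The mean empty droplet would add 3.16, 0.827 and 2.31 Afp UMIs to all hepatocytes of a PHx library together, less than the 63, 93 and 48 counted. For the T or NK-like cells, which should lack Afp, the same estimate was 0.659, 0.565 and 0.603 UMIs, also less than the 6, 10 and 2 counted. Afp was thus also higher in the empty droplets of the PHx libraries, and the part of such RNA in the hepatocyte values beyond the empty-droplet count was not tested.

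**Figure D3:**
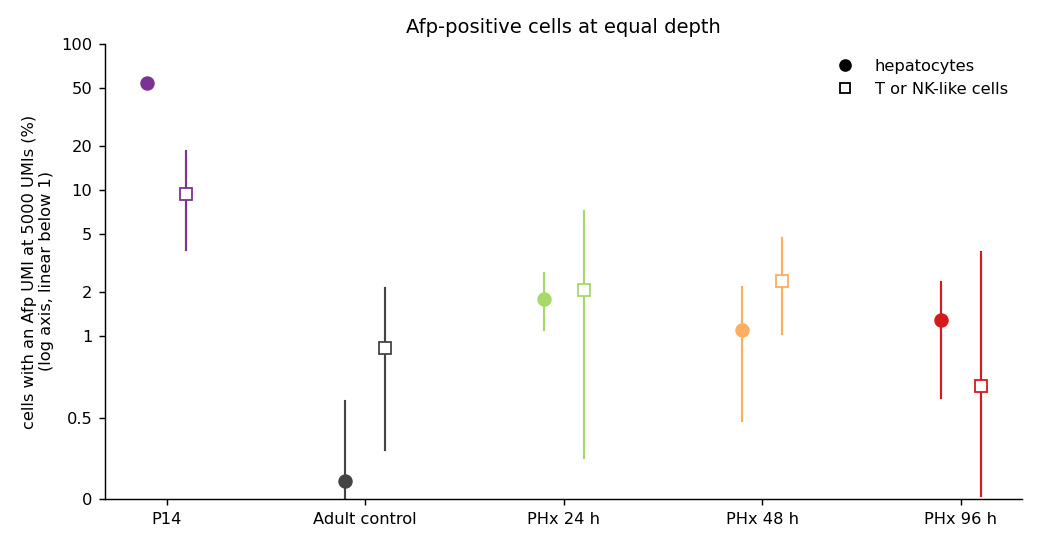
Share of cells with an Afp UMI after thinning each cell to 5000 UMIs (percent, log axis that is linear below 1), in hepatocytes (filled circles) and T or NK-like cells (open squares) of each library, with exact binomial intervals. In P14 53.8% of hepatocytes were positive, whereas the hepatocyte and T or NK-like intervals overlap at 24, 48 and 96 h.

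Among the adult libraries, Cdkn1c had its highest CPM at 96 h. It stood at 0.526 CPM in the Adult control, 0.307 CPM at 24 h, 1.63 CPM at 48 h and 2.90 CPM at 96 h (7, 6, 34 and 39 UMIs). The level at 96 h was 9.44-fold (3.97 to 27.3) that at 24 h and 5.52-fold (2.44 to 14.6) that of the Adult control. The hepatocyte intervals at 24 h (0.113 to 0.669 CPM) and in the Adult control (0.211 to 1.08 CPM) overlapped. T or NK-like cells held 4, 0, 10 and 4 Cdkn1c UMIs in the same order of libraries, or 0.922, 0, 3.24 and 2.86 CPM. Their lowest count was also at 24 h. The 24 h ratio of these cells to the Adult control had an interval of 0 to 4.89, which includes 1. The part of RNA from outside the hepatocytes in these values was not tested beyond the empty droplets, which held 0.832, 0.641, 1.86 and 1.74 CPM.

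Peg3 differed by less than its counting error across the adult libraries. It stood at 3.45 CPM in the Adult control and at 3.79, 4.03 and 3.79 CPM after PHx, with ratios of 1.098 to 1.167 whose intervals included 1. T or NK-like cells held 3, 1, 0 and 0 Peg3 UMIs in the Adult control and at 24, 48 and 96 h, at most 0.744 CPM. Cd24a was at 0.717, 1.15 and 0.298 CPM after PHx, against 1.05 CPM.

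Mitosis-positive hepatocytes after PHx were compared with those without a mitosis gene. Afp was at 1.91 CPM against 4.01 CPM at 24 h, at 6.44 CPM against 2.82 CPM at 48 h and at 7.38 CPM against 2.49 CPM at 96 h. The intervals were separate only at 48 h (4.96 to 8.22 against 1.75 to 4.32) and at 96 h (3.93 to 12.6 against 1.60 to 3.71). Mitosis-positive cells were deeper, with medians of 42096 against 32791 UMIs at 48 h and 28598 against 20930 UMIs at 96 h. Peg3 was at 8.46 CPM (5.75 to 12.01) in mitosis-positive cells at 24 h and 2.44 CPM (1.62 to 3.53) in the others, and at 48 h its values were 3.92 and 3.63 CPM.

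Co-detection of the genes in single cells separated P14 from every adult library. At 5000 UMIs, 93.4% of P14 hepatocytes (92.2 to 94.4%) held 2 or more of the 10 genes and 37.0% held 4 or more. Other P14 cells and empty droplets also held the genes. H19 was at 6030 CPM in empty droplets, and after thinning 86.5% of the T or NK-like cells held H19, 9.46% held Afp and 29.7% (19.7 to 41.5%) held 2 or more of the 10 genes. Neutrophil-like cells of P14 held 2 or more in 75.0% (56.6 to 88.5%) of 32 cells, and erythroid-like cells in 77.8% (52.4 to 93.6%) of 18. The hepatocyte share lay above the T or NK-like and neutrophil-like ranges, but its interval overlapped that of the erythroid-like cells. The genes behind the shares differed between cell types. Erythroid-like cells of P14 held 577 UMIs of Cd24a and 122 of H19, against 6 of Afp, 3 of Gpc3 and 1 of Igf2. In P14 hepatocytes H19 was in 99.2% of thinned cells and Cd24a in 0.760%. The mean empty droplet of P14 would add 5754 H19 UMIs and 260 Afp UMIs to all hepatocytes together, where 675796 and 43144 were counted. For the T or NK-like cells the same estimate was 210 and 9.50 UMIs, where 906 and 22 were counted. The part of free RNA in the shares of cells was not tested beyond this estimate. In the Adult control 0 of 925 hepatocytes held 2 or more, which allows up to 0.324% by a floor of 3 cells and 0.398% by the exact interval. After PHx the shares were 0.171%, 0.139% and 0.389%, from 2, 1 and 3 cells. Another random draw at the same depth gave 0 of 1170, 0 of 719 and 0 of 771 cells, so these shares were not read as different from the Adult control. Without thinning, 99.9% of P14 hepatocytes and 0.216% of those of the Adult control held 2 or more, against 0.684%, 2.92% and 1.56% after PHx.

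In P14 most of the other genes were detected at similar shares in cells with and without Afp. Gpc3 was detected in 29.2% (26.6 to 31.9%) of cells with Afp and in 23.5% (20.8 to 26.3%) of cells without it. Igf2, Igf2bp3, Peg3 and Cdkn1c were detected at shares with overlapping intervals in cells with and without Afp. Igf2 was in 40.6% and 42.5%, and Cdkn1c in 33.1% and 32.4%.

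After PHx, Afp and Peg3, the 2 most detected genes, met in 2, 4 and 3 cells without thinning. The product of their shares gave 2.91, 7.41 and 2.66 cells. Afp and Cdkn1c met in 4 cells at 48 h and 3 cells at 96 h, where the products gave 3.30 and 1.97. Afp and Igf2bp3 met in 0, 0 and 2 cells at 24, 48 and 96 h, against 0.323, 1.202 and 0.372 by the product.

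Several of the genes were carried by other liver cells, named here from fixed markers by the rule of 3 or more markers and at least 2-fold those of any other type. Cd24a, low in hepatocytes, was at 549 CPM in erythroid-like cells of the Adult control, 1278 CPM in those of P14 and 415, 506 and 938 CPM after PHx. It was also at 139 to 398 CPM in neutrophil-like cells and 157 to 817 CPM in mature B-like cells. Igf2bp3 was at 10.4 CPM in T or NK-like cells of the Adult control, 11.16, 11.02 and 11.43 CPM after PHx and 21.9 CPM in P14, where the empty droplets held 33.2 CPM. It was thus detected in adult lymphocytes at a level that adult hepatocytes did not reach.

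Endothelial-like cells carried Cdkn1c. It stood at 33.2 CPM (13.4 to 68.5) in the Adult control, 0 CPM (up to 7.06) at 24 h, 3.23 CPM (0.0818 to 18.002) at 48 h and 28.9 CPM (13.9 to 53.2) at 96 h, from 7, 0, 1 and 10 UMIs in 87, 203, 63 and 108 barcodes. The 87 barcodes of the Adult control had a median of 1698 UMIs, in a library whose empty droplets averaged 1328 UMIs, and whether droplets without a cell were among them was not tested. In P14 it was at 39.7 CPM (19.05 to 73.05), in a library whose empty droplets held 159 CPM, and the part of such RNA in it was not tested. The ratio to the Adult control was at most 0.279 at 24 h and 0.0972 (0.00216 to 0.756) at 48 h. Empty droplets of the 4 adult libraries held at most 1.86 CPM. With 2 endothelial markers in place of 3, a setting chosen after seeing the data, the Adult control had 14.0 CPM (6.06 to 27.6), the 24 h ratio was at most 0.516, and the 48 h ratio of 0.190 (0.00428 to 1.416) included 1. It also included 1 with 4 or 5 markers (upper bounds 1.003 and 1.056), so the 48 h difference rests on the marker setting. The hepatocyte level was also lowest at 24 h, though its interval overlapped that of the Adult control. Cells of both types came from the same libraries.

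Plagl1 was at 34.7 CPM in endothelial-like cells at 96 h (12 UMIs), 9.50 CPM in the Adult control, 3.83 CPM at 24 h and 3.23 CPM at 48 h. The ratio of 96 h to 24 h was 9.07 (2.02 to 83.4), resting on 2 UMIs at 24 h. The ratio of 96 h to the Adult control was 3.65 (0.813 to 33.6), which includes 1. Few mesenchymal, cholangiocyte or macrophage barcodes were found, so the genes were not compared there.

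**Figure D4:**
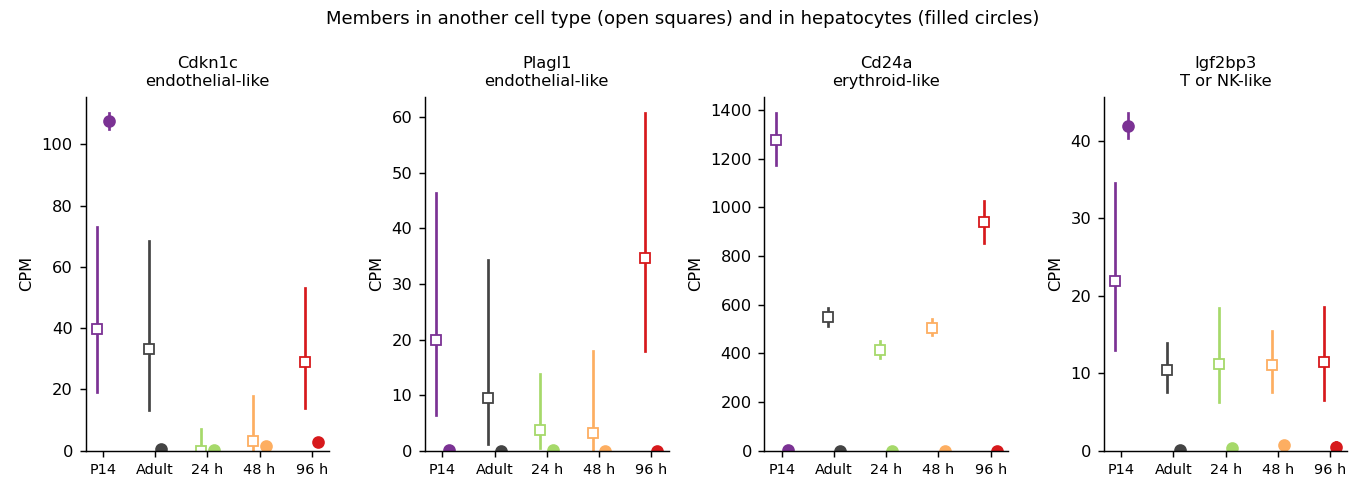
CPM of 4 genes in another cell type (open squares) and in hepatocytes (filled circles) for each library, with exact Poisson intervals as bars and each axis starting at 0. Cdkn1c in endothelial-like cells is at 0 CPM at 24 h and 28.9 CPM at 96 h, and Cd24a in erythroid-like cells is at 415 CPM or more in every library.

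Zhx2 and Zbtb20, which repress Afp, were lower in P14. The list of regulators was not sorted by effect on Afp and may hold other repressors. Zhx2, a homeobox repressor of Afp, H19 and Gpc3, was at 2.60 CPM in P14 and 10.4 CPM in the Adult control, 4.01-fold lower (3.18 to 5.05). Zbtb20, a zinc-finger repressor of Afp, was at 203 CPM against 832 CPM, 4.10-fold lower (3.99 to 4.202). Of 19 regulators that reached 5 CPM, 7 were at least 2-fold lower and 1 at least 2-fold higher in P14, with a median log2 ratio of -0.64 against -0.26 for all tested genes, of which 13.8% were 2-fold lower and 7.89% 2-fold higher. The lower ones also included activators of liver genes. Foxa1 was at 5.08 CPM in P14 against 44.7 CPM, and Cebpa at 165 CPM against 352 CPM. The one higher was Uhrf1, at 6.09 CPM against 0.676 CPM.

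After PHx, Zhx2 was at 7.17, 5.42 and 6.03 CPM and Zbtb20 at 737, 631 and 635 CPM, all below the Adult control and above P14. Uhrf1, which guides maintenance of DNA methylation, was at 48.1, 13.5 and 5.06 CPM, against 0.676 CPM in the Adult control. Dnmt1, the maintenance methyltransferase, was at 49.4 CPM at 24 h against 7.51 CPM. Cebpa, a liver-enriched activator, was at 72.5 CPM at 24 h, 81.2 CPM at 48 h and 263 CPM at 96 h, against 352 CPM. Foxa1 was at 18.9, 12.5 and 28.3 CPM against 44.7 CPM. Of the 19, 3 were 2-fold higher and 3 lower at 24 h, 2 and 4 at 48 h and 1 and 0 at 96 h, where 8.51%, 8.3% and 4.07% of all tested genes were 2-fold higher and 7.13%, 7.63% and 1.88% lower.

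Some other imprinted genes were also higher in P14. Of 53 in the count tables, 25 reached 5 CPM in P14 or the Adult control, 5 were at least 2-fold higher in P14 and 2 lower, beside 7.89% and 13.8% of all tested genes. Their median log2 ratio was -0.12, against -0.26 for all tested genes. Genes below 5 CPM in the Adult control could enter only through their P14 level, so these values are a description. Meg3, a non-coding RNA from the same domain as Dlk1, was at 29.995 CPM against 0.526 CPM, 57.1-fold higher (27.6 to 142), although Dlk1 had 0 UMIs. Grb10, an imprinted adaptor that restrains growth, was at 44.5 CPM against 3.23 CPM, and Kcnq1ot1, the non-coding RNA of the Cdkn1c domain, at 154 CPM against 36.1 CPM.

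At 96 h Meg3 was at 2.75 CPM, 5.24-fold (2.30 to 13.9) its Adult control level, and Kcnq1ot1 at 76.4 CPM, 2.12-fold (1.90 to 2.36). At 24 h Meg3 was at 0.154 CPM and Kcnq1ot1 at 30.5 CPM. Of the imprinted genes, 2 of 22 were 2-fold higher and 2 lower at 24 h, 1 and 3 of 22 at 48 h, and 2 and 0 of 23 at 96 h. Of all tested genes, 8.51%, 8.3% and 4.07% were higher and 7.13%, 7.63% and 1.88% lower at these times.

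The partners of Igf2 were described from a list of 15 genes of the growth-factor axis, 10 of which reached 5 CPM. Igf2r, the receptor that removes Igf2, was at 33.8 CPM in P14 and 35.2 CPM in the Adult control, a ratio of 0.959 (0.868 to 1.06). Igf1r, the signalling receptor, was at 0.601 CPM or less in every library. Igfbp1, a secreted binding protein, was at 2075 CPM in P14, 23.6 CPM in the Adult control and 468, 235 and 42.9 CPM after PHx. Igfbp2 was at 1881 CPM in P14 and 236 CPM in the Adult control, and at 148, 113 and 273 CPM after PHx.

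In P14, 3 of the 10 were 2-fold higher and 1 lower, beside 7.89% and 13.8% of all tested genes. After PHx 1 was higher and 2 lower at 24 h, 1 and 4 at 48 h and 0 and 1 at 96 h. The shares of all tested genes were 8.51%, 8.3% and 4.07% higher and 7.13%, 7.63% and 1.88% lower. Ghr, the growth hormone receptor, was at 252 and 222 CPM at 24 and 48 h, against 596 CPM. Of the RNA-binding partners, Igf2bp1 had 0 UMIs in every library and Lin28b had 6 UMIs in P14 and 0 elsewhere.

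Some other genes of the immature liver were also higher in P14. Of 32, 17 reached 5 CPM, 10 were at least 2-fold higher in P14 and 4 lower, beside 7.89% and 13.8% of all tested genes. The median log2 ratio of the 17 was 2.62, against -0.26 for all tested genes. Genes below 5 CPM in the Adult control could enter only through their P14 level, so the count and the median are a description. Lpl, a lipase of fetal liver, was at 1046 CPM against 14.4 CPM, and Prom1, a progenitor surface protein, at 40.3 CPM against 0 UMIs. Elovl3, a fatty acid elongase of adult male liver, was at 0.0155 CPM (1 UMI) against 254 CPM.

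Some of these genes passed 5 CPM and 2-fold after PHx. Spink1, a trypsin inhibitor, was at 3.02, 5.28 and 16.3 CPM at 24, 48 and 96 h, against 0.526 CPM. Lpl was at 5.79, 25.6 and 92.5 CPM in the same order, 2.49-fold below its Adult control level at 24 h and 6.41-fold above it at 96 h. Of this list 1, 1 and 2 genes were 2-fold higher and 2, 1 and 1 lower at 24, 48 and 96 h, among 8, 10 and 9 that reached 5 CPM. All tested genes had 8.51%, 8.3% and 4.07% higher and 7.13%, 7.63% and 1.88% lower.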

How the data were processed

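The authors deposited 1 table of UMI counts per library, with 31053 genes and 6794880 listed barcodes each, so empty droplets were included, and totals of 80927744 to 136110607 UMIs. Per the submitters' processing notes, bcl2fastq 2.17.1.14, Cell Ranger, Seurat 3.1 and the mm10 build were used. The version of Cell Ranger and its annotation are not given in the sources used here.

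Counts were summed over the hepatocytes of a library and divided by their total without mitochondrial genes (CPM). Intervals were exact Poisson or Clopper-Pearson (scipy 1.17.1, numpy 2.4.6, Python 3.11.15). TMM factors came from edgeR 4.0.16 (R 4.3.3) and served as an alternative scaling, with no test. Log2 ratios used a pseudocount of 1 CPM, and a floor of 3 UMIs stood for 0. A call needed 5 CPM in either library and a ratio of 4-fold (P14) or 2-fold (PHx). Shares of positive cells used all UMIs of a cell or, where stated, cells thinned to 5000 UMIs. Barcodes of other types had at least 1000 UMIs, and empty droplets were barcodes of rank 20001 to 60000 by UMIs. In the Adult control 68549 barcodes had at least 1000 UMIs and those ranks averaged 1328 UMIs, so the minimum lay within the empty-droplet range. The scripts were tested on simulated data.

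All 10 genes were named. From other lists, genes past 2-fold at 20 CPM or more were named, at most 6 per list, with Zhx2, Zbtb20, Igf2r, Igf1r, Alb, Meg3, Lin28b and Igf2bp1 in any case, and the 5 largest P14 ratios among genes of at least 20 CPM. The members and lists were chosen with earlier results of these data known. Other cell filters, scalings, pseudocounts, minimums and depths were tried as alternatives.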

Additional observations from a re-analysis of the deposited data

Results flagged for a closer look

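H19 and Igf2 were nearly absent from hepatocytes after PHx but were counted elsewhere in the same libraries, above the level of the Adult control. Outside the hepatocytes, H19 had 1229 UMIs at 24 h, 689 at 48 h and 744 at 96 h, against 3 in the Adult control. Igf2 had 13, 10 and 13 UMIs, against 1.

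Most of these H19 UMIs carried barcodes that also belong to P14 cells. Barcodes of the 2907 P14 cells with at least 5000 UMIs held 76.6%, 75.9% and 76.2% of the H19 UMIs at 24, 48 and 96 h, and 76.3% of the H19 UMIs in P14 itself. The same barcodes held 0.171%, 0.336% and 0.136% of all UMIs of the PHx libraries and 0 of the 3 H19 UMIs of the Adult control. For Igf2 they held 10, 6 and 11 UMIs, and for Afp 17.8%, 15.1% and 9.37% of the UMIs of the whole libraries. No H19 or Igf2 UMI of a PHx hepatocyte lay at such a barcode, and 1 of the 93 Afp UMIs of the 48 h hepatocytes did. The cause was not tested.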

How the results depend on the processing

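The count of 7 genes at least 4-fold higher in P14 was the same in 13 alternatives. After PHx the count of 0 genes became 1 at 48 h with 10 to 20% mitochondrial UMIs, and 1, 1 and 2 at 24, 48 and 96 h with no CPM minimum. The share of hepatocytes with 2 or more of the genes in P14 was 91.9% with at least 10000 UMIs, 99.9% without thinning, 95.9% at 5000 UMIs without mitochondrial genes and 57.2% with at least 2 UMIs of a gene.

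After PHx that share, which rests on 1 to 3 cells, was 0% at 24, 48 and 96 h with 0 to 30% or 10 to 20% mitochondrial UMIs, with hepatocyte markers of at least 5%, or with at least 2 UMIs of a gene. It was 0% at 48 h without Cd24a or without cells of 3 markers of another type, and 0% at 96 h with at least 10000 UMIs or without the 5% deepest cells. Without thinning it was 0.684%, 2.92% and 1.56%. Another random draw at the unchanged setting gave 0% at 24, 48 and 96 h. Hepatocyte markers of at least 5% left 6 and 2 cells at 24 and 48 h. The cause was not tested, except that cells drawn anew by a filter or a depth change so small a count by construction.

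Of the log2 ratios of single genes, 20 of 104 in P14 and 17 of 156 after PHx left the counting interval. No ratio whose own interval excluded 0 changed sign. Others after PHx crossed 0, all in settings with other mitochondrial limits or hepatocyte markers of at least 5%. For Peg3 the log2 range was -0.81 to 0.86 (24 h), -3.45 to 0.35 (48 h) and -1.35 to 0.25 (96 h). For Cdkn1c it was -0.36 to 0.57 (24 h), and for Cd24a -1.41 to 0.17 (48 h) and -1.26 to 0.04 (96 h). No paired analysis was possible because each group holds 1 library. Depth limits the PHx values, where single UMIs decide the shares.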

Other observations

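The 5 genes with the largest P14 ratios among those with at least 20 CPM in P14 were H19, Sult2a1, Xist, Afp and Sult2a5. Sult2a1 and Sult2a5, sulfotransferases of steroids and bile acids, stood at 853 and 396 CPM in P14 and at 0 UMIs in the Adult control. Xist, the RNA that silences an X chromosome in females, stood at 840 CPM. Of the 5, only H19 and Afp belong to the 10 genes described above.

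Alb, Afm and Gc, neighbours of Afp in the albumin cluster, were near or below their Adult control level at 24 and 48 h. Alb was at 0.662-fold and 0.822-fold that level at 24 and 48 h and at 1.99-fold at 96 h. Because Alb is part of the rule for hepatocytes, its ratios depend in part on that rule. Afm, which encodes afamin, was at 0.720, 1.09 and 1.97-fold, and Gc, the vitamin D-binding protein, at 0.742, 1.07 and 1.59-fold. None of the 3 passed 2-fold at these times, beside 8.51%, 8.3% and 4.07% of all tested genes that were 2-fold higher.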
